A study of Homo sapiens with 6 samples.

Results

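The mitosis and spindle genes are 34 named genes of cell division, listed by name and not by their values in these data. All 34 were found by symbol among the 26485 genes of the deposited tables, with 1 line each in every table. All 34 passed the filter on low values and are among the 14195 genes tested. They were followed in 6 messenger RNA libraries of 3 human lung cancer cell lines, with 2 libraries per line: the sublines PC9-BrM4 and PC9-AMG, and PC9 itself, which was established from a lung adenocarcinoma and carries a mutant EGFR. PC9-BrM4 is known as a brain-metastatic derivative, which the labels do not state, and the sources used here do not explain the letters AMG. All 3 lines were grown in conventional culture with no other treatment named, so each line is a single cultured population with no host tissue around it. The labels do not say that the libraries of a line came from separate cultures, so the p-values rest on the spread between these libraries alone, which may be a technical one.

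Cells that are about to divide make a common set of transcripts late in the cycle. CDK1 with its cyclins starts mitosis, the Polo and Aurora kinases build the spindle, the kinetochores attach chromosomes to it, and the spindle checkpoint holds the anaphase-promoting complex back until all chromosomes are attached. Most of these genes are switched together by the MuvB complexes, which act with B-MYB and FOXM1 in dividing cells and with repressors in resting cells, and which bind a short promoter element named the cell cycle genes homology region (CHR), often beside CCAAT boxes bound by NF-Y.

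Promoters are shown for 10 members that carry the results below, so that the shared letters can be seen beside the values. They come from RefSeq (GRCh38.p14) and run 5′ to 3′ over the 250 bases before the annotated start, 1 start per gene. Capitals mark the CHR letters (TTTGAA or TTCGAA, read on the other strand as TTCAAA or TTCGAA) and the CCAAT letters (CCAAT, read on the other strand as ATTGG). In CDCA8 the CHR and a CCAAT match share a letter, and in HMMR 2 CCAAT matches on opposite strands share letters. The windows lie at chr15:59104896-59105145 (plus strand, CCNB2), chr16:23678639-23678888 (plus, PLK1), chr1:43358731-43358980 (plus, CDC20), chr10:60778081-60778330 (plus, CDK1), chr1:37692266-37692515 (plus, CDCA8), chr10:92592880-92593129 (plus, KIF11), chr5:163460382-163460631 (plus, HMMR), chr17:40417897-40418146 (minus, TOP2A), chr1:44739587-44739836 (plus, KIF2C) and chr13:52455738-52455987 (plus, CKAP2).
CCNB2: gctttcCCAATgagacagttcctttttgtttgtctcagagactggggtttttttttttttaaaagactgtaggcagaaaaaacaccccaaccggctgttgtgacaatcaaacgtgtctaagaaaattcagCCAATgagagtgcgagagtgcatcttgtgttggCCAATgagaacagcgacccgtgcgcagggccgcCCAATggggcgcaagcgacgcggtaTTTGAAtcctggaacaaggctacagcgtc
PLK1: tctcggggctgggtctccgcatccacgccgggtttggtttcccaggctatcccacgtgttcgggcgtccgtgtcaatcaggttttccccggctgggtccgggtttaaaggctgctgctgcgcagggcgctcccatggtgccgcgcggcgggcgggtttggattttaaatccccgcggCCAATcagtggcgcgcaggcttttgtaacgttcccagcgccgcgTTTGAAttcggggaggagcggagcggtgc
CDC20: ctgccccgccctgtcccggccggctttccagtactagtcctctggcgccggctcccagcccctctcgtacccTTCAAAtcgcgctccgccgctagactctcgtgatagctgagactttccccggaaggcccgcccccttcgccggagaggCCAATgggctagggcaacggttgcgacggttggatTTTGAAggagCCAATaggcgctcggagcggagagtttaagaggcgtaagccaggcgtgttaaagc
CDK1: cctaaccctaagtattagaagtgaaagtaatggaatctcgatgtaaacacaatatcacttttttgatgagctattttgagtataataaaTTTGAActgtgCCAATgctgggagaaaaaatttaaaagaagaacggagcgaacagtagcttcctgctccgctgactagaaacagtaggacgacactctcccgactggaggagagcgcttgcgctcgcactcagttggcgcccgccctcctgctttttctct
CDCA8: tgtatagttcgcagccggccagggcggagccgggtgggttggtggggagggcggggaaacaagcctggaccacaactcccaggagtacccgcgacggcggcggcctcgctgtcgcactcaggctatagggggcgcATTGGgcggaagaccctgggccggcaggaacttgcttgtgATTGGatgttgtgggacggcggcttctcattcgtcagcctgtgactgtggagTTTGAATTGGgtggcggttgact
KIF11: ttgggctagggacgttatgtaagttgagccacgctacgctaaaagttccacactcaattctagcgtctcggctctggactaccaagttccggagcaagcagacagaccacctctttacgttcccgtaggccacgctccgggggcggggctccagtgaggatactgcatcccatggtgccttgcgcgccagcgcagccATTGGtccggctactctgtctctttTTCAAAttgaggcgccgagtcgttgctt
HMMR: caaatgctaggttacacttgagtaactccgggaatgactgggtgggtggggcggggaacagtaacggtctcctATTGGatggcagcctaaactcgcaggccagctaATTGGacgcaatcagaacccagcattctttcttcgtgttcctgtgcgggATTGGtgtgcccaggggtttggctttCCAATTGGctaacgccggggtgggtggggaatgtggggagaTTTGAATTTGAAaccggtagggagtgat
TOP2A: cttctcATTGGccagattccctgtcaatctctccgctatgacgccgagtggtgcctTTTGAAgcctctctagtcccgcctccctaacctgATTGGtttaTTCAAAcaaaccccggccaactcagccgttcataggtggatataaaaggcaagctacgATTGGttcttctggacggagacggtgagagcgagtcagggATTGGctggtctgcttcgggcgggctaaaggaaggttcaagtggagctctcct
KIF2C: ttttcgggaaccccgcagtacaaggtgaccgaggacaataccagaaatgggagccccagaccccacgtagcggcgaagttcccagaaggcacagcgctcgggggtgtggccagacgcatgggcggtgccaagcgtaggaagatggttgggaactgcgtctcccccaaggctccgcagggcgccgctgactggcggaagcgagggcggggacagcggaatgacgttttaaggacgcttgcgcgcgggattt
CKAP2: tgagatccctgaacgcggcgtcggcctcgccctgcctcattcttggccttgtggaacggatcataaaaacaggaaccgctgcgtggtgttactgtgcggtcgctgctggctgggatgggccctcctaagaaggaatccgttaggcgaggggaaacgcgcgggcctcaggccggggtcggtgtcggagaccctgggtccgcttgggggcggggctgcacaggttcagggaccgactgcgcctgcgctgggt

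CCNB2 carries the arrangement known from this gene class most plainly, with CCAAT matches at positions -120, -87 and -54 and a CHR at -29, counted to the first letter from the annotated start. PLK1 and KIF11 have 1 CCAAT and 1 CHR each, the CHR at -29 and -28. In CDC20 and TOP2A the CHR letters lie farther out, at -178 and -65 and at -194 and -151, and in CDK1 at -161. KIF2C and CKAP2 hold neither set of letters in these windows. Among the 28 matched members the RefSeq start lay within 200 bases of the start of the deposited gene model for 24, but 628 bases inside the model for CKAP2, 401 for AURKB and 384 for KIF20A, and 219 bases outside it for MKI67, so these windows concern another start than that of the deposited tables.

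RefSeq entries were matched for 28 of the 34 members. The members without one are FOXM1, AURKA, BIRC5, TTK, UBE2C and TPX2. Over the 300-base window that runs from 250 bases before to 50 bases after the start, CHR letters occurred in 21 of the 28 promoters (75%), against 11.02% of 10068 promoters of tested genes. CCAAT letters occurred in 22 of 28 (78.6%) against 36.7%, 2 or more CCAAT in 15 (53.6%) against 13.7%, and both elements in 18 (64.3%) against 4.72%. In 10 members a CHR began 30 to 15 bases before the start, namely CCNB2, PLK1, CDCA8, BUB1B, CENPA, KIF11, HMMR, PRC1, ANLN and MKI67. Neighbouring CCAAT matches were 31 to 34 bases apart in CCNB1, CCNB2 and HMMR. The members with neither element were CENPE, KIF2C and CKAP2. They were also found in other genes of division: CHR letters occurred in 24 of 32 promoters of other spindle, centrosome and cytokinesis genes (75%), 62.5% of which held both elements, and in 13 of 24 of other kinetochore and checkpoint genes (54.2%). In G1/S and replication genes, of the preceding cycle phase, CHR letters occurred in 2 of 32 promoters (6.25%), and 18 of those 32 (56.2%) held CCAAT. A match is a description of letters in a window and not a binding site.

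**Figure D1:**
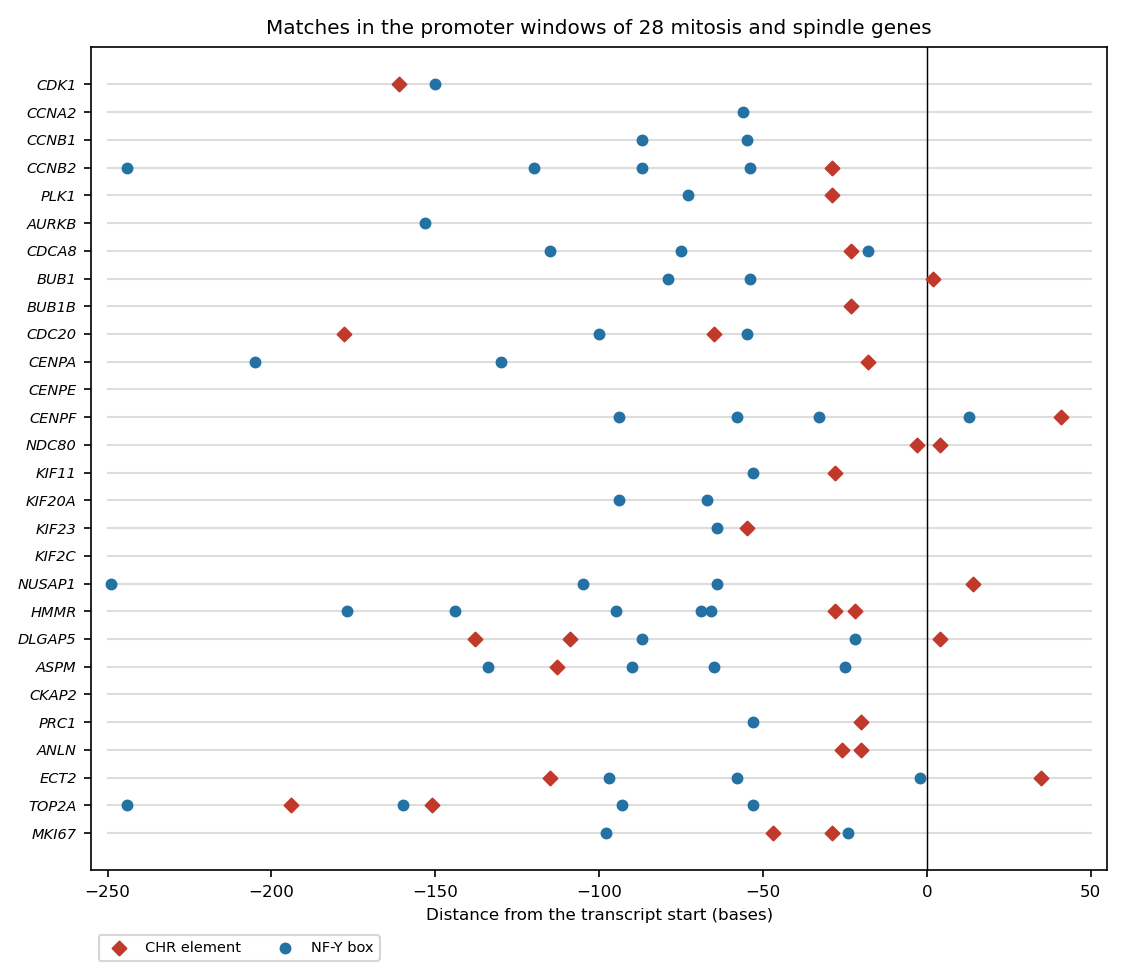
Positions of CHR and CCAAT letters in the 28 matched promoters of the mitosis and spindle genes, in bases from the annotated start (x axis), 1 row per gene. In 10 rows a CHR mark lies 30 to 15 bases before the start, and the rows of CENPE, KIF2C and CKAP2 hold no mark.

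Depth came to 3.13 and 3.84 aligned gigabases in PC9-BrM4, 3.93 and 4.39 in PC9-AMG, and 3.42 and 2.66 in PC9, estimated by dividing deposited coverage by FPKM. Epithelial markers were present in every library, with EPCAM at 665 to 726 TPM and KRT8 at 3085 to 4870 TPM. The 5 lung lineage markers summed to at most 0.887 TPM in any library, with NKX2-1 listed at 0 in 5 of the 6, so these lines hold almost none of them. The 12 markers of fibroblasts, endothelium and leukocytes summed to 6.67 and 7.66 TPM in PC9-BrM4, 22.1 and 21.2 TPM in PC9-AMG, and 10.05 and 10.6 TPM in PC9. COL1A2 and DCN were listed at 0 in all libraries, and COL1A1 was the largest part of the PC9-AMG sums at 14.4 and 14.8 TPM. The part of these markers in the results below was not tested.

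The 34 genes together held less of the transcript pool in PC9-BrM4, and to a smaller extent in PC9-AMG, than in PC9. Their summed level was 4558 and 4606 TPM in PC9-BrM4, 5142 and 5099 TPM in PC9-AMG, and 5334 and 5333 TPM in PC9. TPM is a transcript abundance scaled by gene length and to a fixed total per library, so levels of different genes can be compared and every level is relative to the other transcripts of its library. In bulk RNA, fewer cells in mitosis and less of a transcript per cell cannot be told apart. The lowest member in every library was CENPE, at 15.3 to 25.2 TPM. The highest was CDC20 in the sublines, at 326 to 419 TPM, and CDK1 in PC9, at 383 and 386 TPM.

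**Figure D2:**
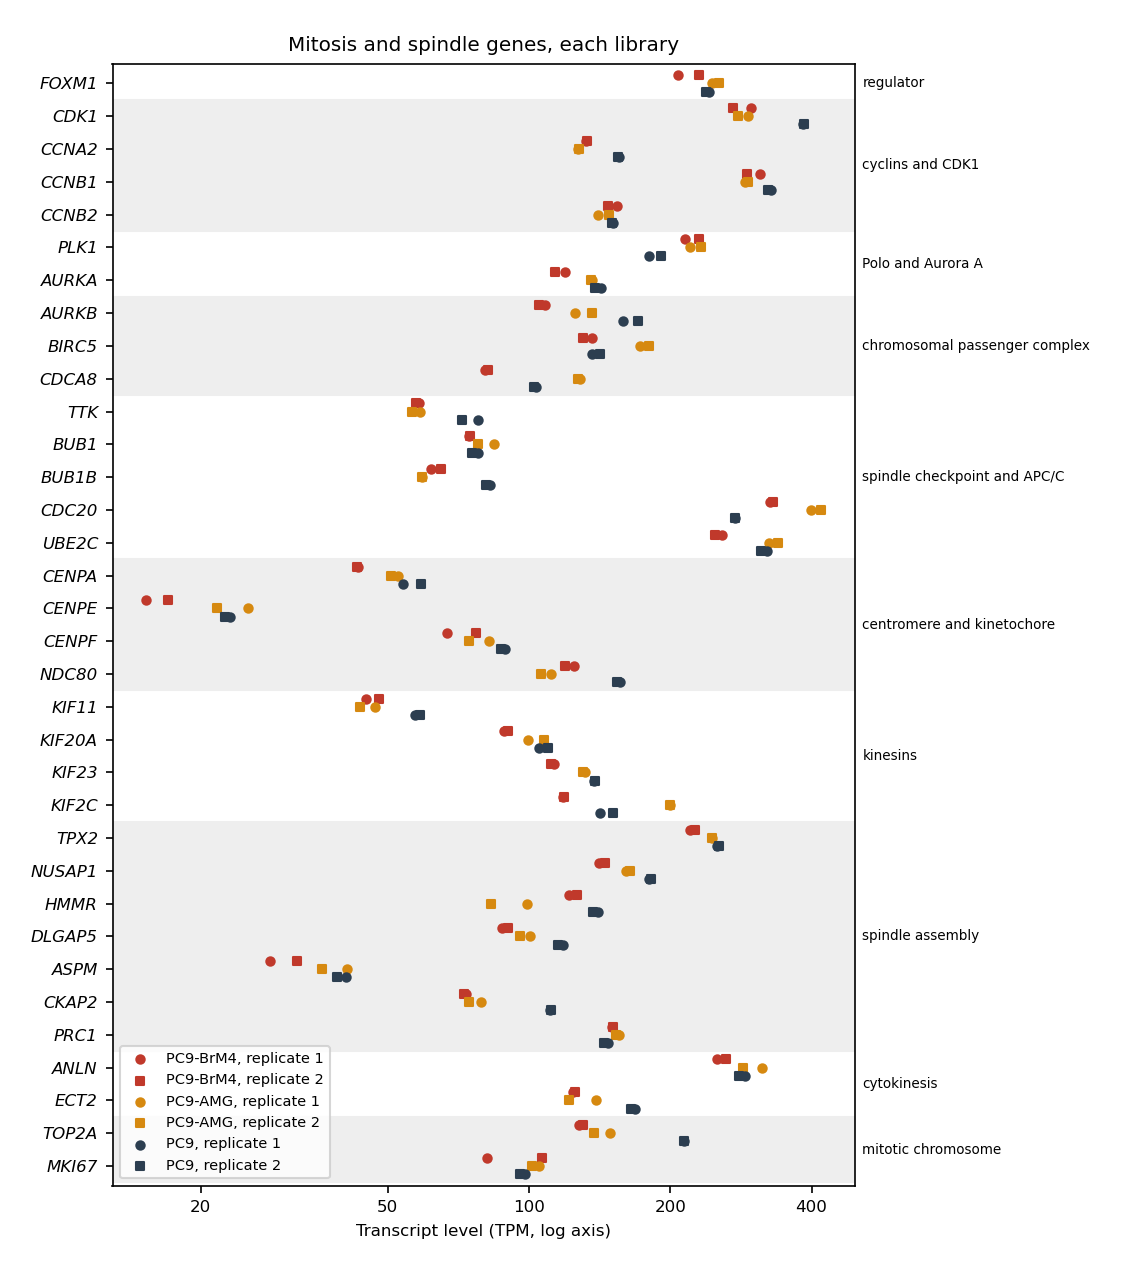
Level of each of the 34 genes in each library in TPM (log axis), grouped by role, with 2 points per line for PC9-BrM4, PC9-AMG and PC9. CENPE is lowest in all 6 libraries, and the TOP2A points of both sublines, at 128 to 149 TPM, lie below the PC9 points at 213 and 214 TPM.

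Against PC9, PC9-BrM4 had lower transcript levels of most of these genes, by moderate amounts. Of the 34 members, 23 fell (67.6%), 2 rose (5.88%) and 9 did not pass a limma adjusted p of 0.05. Of all tested genes 23.1% were lower and 23.4% higher, 46.6% in all, so lower calls were more frequent among the members than over the whole table and higher calls less frequent. The median log2 fold change of the members was -0.30, within -0.72 to 0.26, while that of all tested genes was -0.0016. The PC9-BrM4 and PC9 libraries were fully separate for 32 members, 29 of them lower in PC9-BrM4, against 75.2% of all tested genes not overlapping and 37.8% not overlapping and lower. No member reached a 2-fold difference in either direction, and 3 passed 1.5-fold. Of the 14195 tested genes, 569 reached 2-fold and 1809 passed 1.5-fold. In limma's test against a fold of 1.2, 4 members were lower (AURKB, CDK1, CKAP2 and TOP2A) and 0 higher, where 7.57% of all tested genes were lower and 7.17% higher. Fold changes are on the scale of log2(TPM + 1), which understates the change of low genes.

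PC9-AMG differed from PC9 in a more mixed way. There 14 members fell (41.2%), 5 rose (14.7%) and 15 did not pass, beside 27.7% of all tested genes lower, 27.8% higher and 55.5% called in all. The median log2 fold change was -0.07, within -0.61 to 0.57, and -0.0058 over all tested genes. Libraries did not overlap for 29 members, 20 of them lower in PC9-AMG, against 79.8% of all tested genes and 40.2% not overlapping and lower. Against a fold of 1.2, limma called 6 members lower (BUB1B, CDK1, CKAP2, HMMR, NDC80 and TOP2A) and CDC20 and KIF2C higher, where 9.19% of tested genes were lower and 11.5% higher. Both comparisons use the same PC9 libraries, so their fold changes are not independent of each other.

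Compared directly, PC9-AMG had higher levels than PC9-BrM4 for over 50% of the members. Of the 34, 18 rose (52.9%), 2 fell (5.88%) and 14 did not pass, beside 28.1% of all tested genes higher, 28% lower and 56.1% called in all. The count of higher members was 11 without PC9-BrM4 replicate 1 and 12 without PC9-AMG replicate 1, and that of lower members was 1 without PC9-BrM4 replicate 1 and 1 without PC9-AMG replicate 2. The median was 0.14, within -0.45 to 0.75. Libraries did not overlap for 25 members, 4 of them lower in PC9-AMG, against 77.5% of all tested genes and 39.3% not overlapping and lower. Against a fold of 1.2, limma called BIRC5, CDCA8, KIF2C and UBE2C higher and 0 members lower, where 12.7% of tested genes were higher and 10.1% lower. At that fold, higher calls were no more frequent among the members than over all tested genes. Tested genes within 5 Mb had medians of 0.32, 0.37 and 0.33 around BIRC5, CDCA8 and KIF2C in this comparison, and 0.07 around UBE2C.

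**Figure D3:**
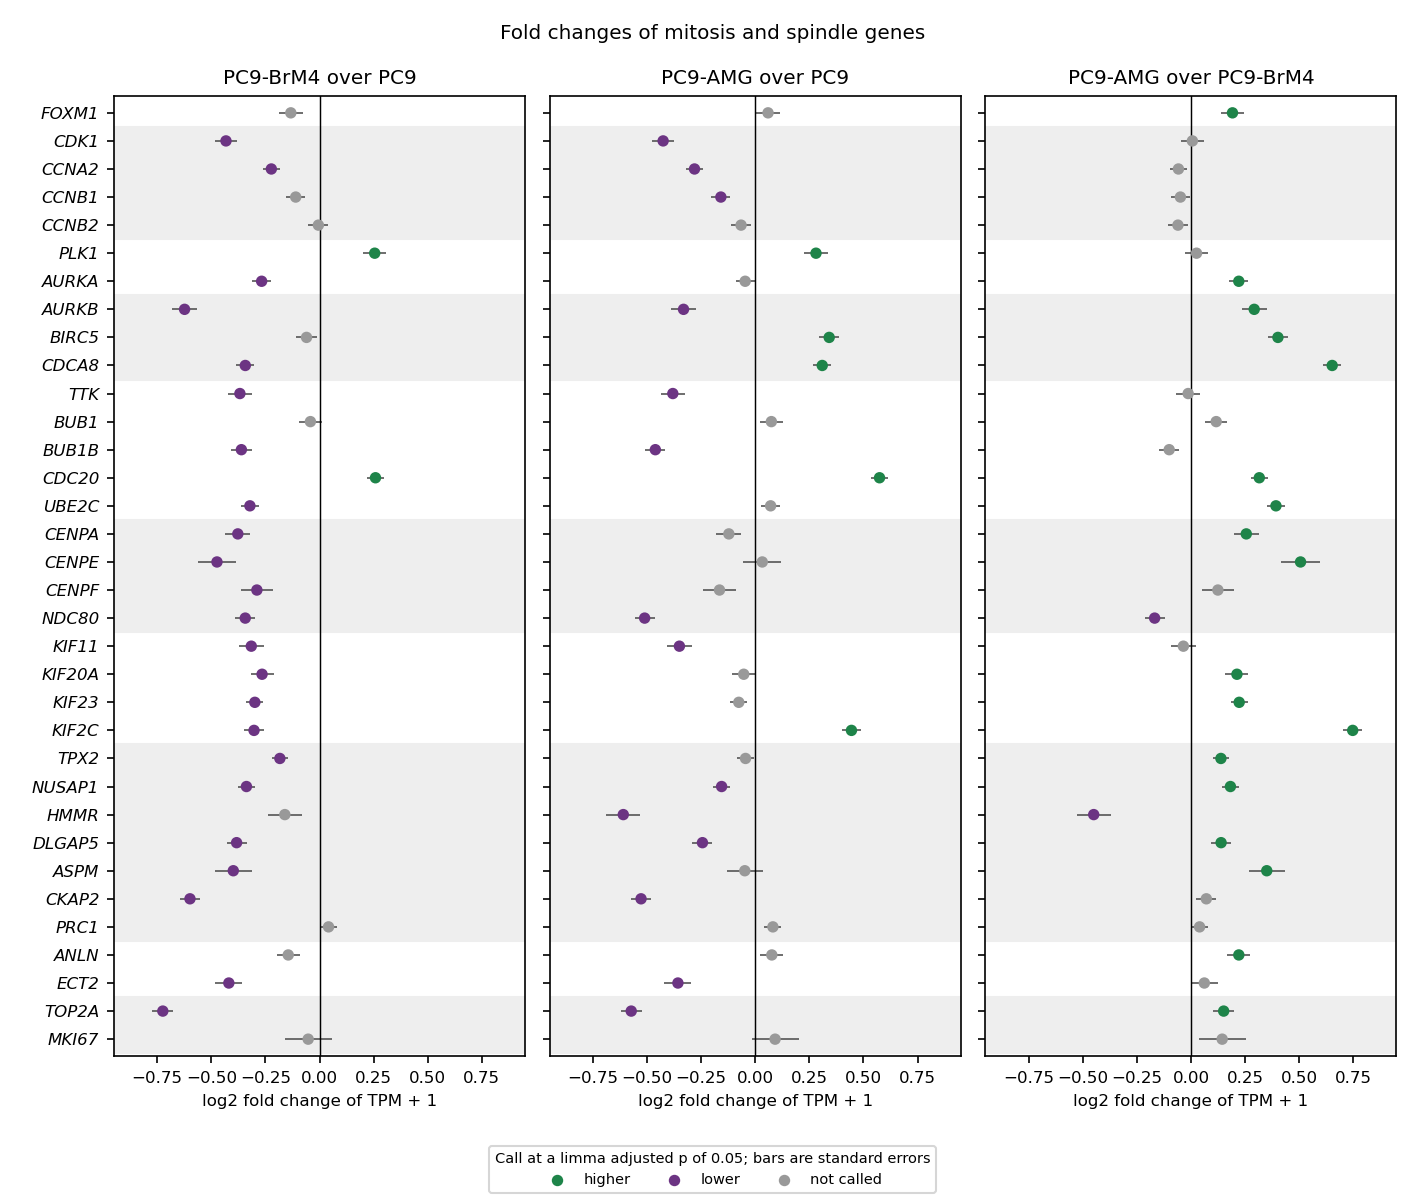
Log2 fold change on the log2(TPM + 1) scale for each of the 34 genes in the 3 comparisons, with standard errors from the limma fit and called genes marked. Most points of PC9-BrM4 with PC9 lie between -0.72 and 0, with CDC20 and PLK1 called on the positive side.

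FOXM1, the forkhead transcription factor that drives late cell cycle genes (chromosome 12, 2857681 to 2877155, hg38), stood at 207 and 231 TPM in PC9-BrM4 and 246 and 254 TPM in PC9-AMG, against 241 and 238 TPM in PC9. It did not pass against PC9 in either subline, with log2 fold changes of -0.13 (limma adjusted p = 0.0858) in PC9-BrM4 and 0.06 (limma adjusted p = 0.393) in PC9-AMG. In PC9-BrM4 it stood at -0.21 without PC9-BrM4 replicate 2, and was called lower with FPKM in place of TPM, at -0.16 (limma adjusted p = 0.0398). The median log2 fold change of 72 tested genes within 5 Mb was -0.14 there. With the neighbours' median taken off each library FOXM1 stood at -0.02 (limma adjusted p = 0.815). The direct comparison called it higher in PC9-AMG, at 0.19 (limma adjusted p = 0.0201), a call that ended without PC9-BrM4 replicate 1 (limma adjusted p = 0.0793) and without PC9-AMG replicate 1 or 2 (0.0516 and 0.103). FOXM1 shares 898 bases with RHNO1 on the opposite strand. The sources used here do not say whether strand was used in the counting, so reads of such partners cannot be told apart, which also holds for CCNA2 with EXOSC9, KIF20A with CDC23 and ANLN with KIAA0895.

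CDK1, the kinase that starts mitosis (chromosome 10, 60778331 to 60794852), had 297 and 273 TPM in PC9-BrM4 and 293 and 279 TPM in PC9-AMG, against 383 and 386 TPM in PC9. All subline libraries lay below both PC9 libraries, and the sublines overlapped each other. The log2 fold changes were -0.43 in PC9-BrM4 and -0.43 in PC9-AMG, each with a standard error of 0.0519 (limma adjusted p = 0.000491 and 0.000404). CCNA2, the cyclin that partners CDK1 into early mitosis, stood at 133 and 133 TPM in PC9-BrM4 and 127 and 128 TPM in PC9-AMG, against 155 and 155 TPM in PC9. It too was lower in both sublines, by -0.22 and -0.28 on the log2 scale (limma adjusted p = 0.00270 and 0.000713). The fall in PC9-BrM4 was no larger than that of its neighbours: the median log2 fold change of 24 tested genes within 5 Mb was -0.27. With the neighbours' median taken off each library the value was 0.02 (limma adjusted p = 0.678).

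The B-type cyclins, which hold CDK1 active through metaphase, moved less. CCNB1 had 311 and 291 TPM in PC9-BrM4 and 288 and 294 TPM in PC9-AMG, against 327 and 322 TPM in PC9. It was lower in PC9-AMG at -0.16 (limma adjusted p = 0.0177), and that call was lost without PC9 replicate 1 (limma adjusted p = 0.101), PC9 replicate 2 (0.0665) or PC9-AMG replicate 1 (0.0780). In PC9-BrM4 it did not pass, at -0.11 (limma adjusted p = 0.0771), except without PC9-BrM4 replicate 1 (0.0311). CCNB2 stood at 154 and 147 TPM in PC9-BrM4 and 140.4 and 148 TPM in PC9-AMG, against 151 and 151 TPM in PC9 and passed in no comparison (limma adjusted p = 0.935, 0.258 and 0.299 for PC9-BrM4 and PC9-AMG against PC9 and for the direct comparison of the sublines). Its promoter holds the CHR and CCAAT letters, as that of PLK1 does.

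PLK1, the Polo kinase of centrosome maturation and spindle assembly (chromosome 16, 23678822 to 23690367), was higher in both sublines. It had 215 and 229.8 TPM in PC9-BrM4 and 220.3 and 232 TPM in PC9-AMG, against 181 and 192 TPM in PC9, so all 4 subline libraries lay above both PC9 libraries. The log2 fold changes were 0.26 and 0.28 with a standard error of 0.0533 (limma adjusted p = 0.00638 in PC9-BrM4 and 0.00324 in PC9-AMG). The PC9-BrM4 call was lost without PC9 replicate 1 (limma adjusted p = 0.0522) and did not hold with its regional median removed, at 0.13 (limma adjusted p = 0.122). The PC9-AMG call was lost only in the test against a fold of 1.2 among the 18 alternatives run. AURKA, the Aurora kinase of spindle poles (chromosome 20, 56369389 to 56392295), went the other way in PC9-BrM4, with 119 and 114 TPM in PC9-BrM4 and 136 and 135 TPM in PC9-AMG, against 142 and 138 TPM in PC9. Its log2 fold change was -0.27 (limma adjusted p = 0.00209) in PC9-BrM4 and -0.05 (limma adjusted p = 0.395) in PC9-AMG, and PC9-AMG was higher than PC9-BrM4 by 0.22 (limma adjusted p = 0.00380).

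The chromosomal passenger complex corrects wrong attachments at the centromere, and its 3 listed members differed from each other. AURKB, its kinase (chromosome 17, 8204731 to 8210626), had 108 and 105 TPM in PC9-BrM4 and 125 and 136 TPM in PC9-AMG, against 159 and 171 TPM in PC9. It was among the largest falls of the list in PC9-BrM4, at -0.62 with a standard error of 0.0574 (limma adjusted p = 0.000155), and fell by less in PC9-AMG, at -0.33 (limma adjusted p = 0.00210). The PC9-AMG libraries lay between those of the other lines, 0.29 above PC9-BrM4 on the log2 scale (limma adjusted p = 0.00361).

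BIRC5, or survivin, and CDCA8, or borealin, are the subunits that place AURKB at the centromere. BIRC5 (chromosome 17, 78214196 to 78225635) stood at 136 and 130.5 TPM in PC9-BrM4 and 173 and 180.2 TPM in PC9-AMG, against 136 and 142 TPM in PC9. Both PC9-AMG libraries exceeded the other 4, by 0.34 (limma adjusted p = 0.000691) against PC9 and 0.40 (limma adjusted p = 0.000280) against PC9-BrM4, while PC9-BrM4 did not pass against PC9 at -0.06 (limma adjusted p = 0.326) but was called lower with the regional median removed, at -0.17 (limma adjusted p = 0.0356). CDCA8 (chromosome 1, 37692401 to 37709719) had 80.4 and 81.6 TPM in PC9-BrM4 and 129 and 127 TPM in PC9-AMG, against 103 and 103 TPM in PC9, 3 separate levels with no overlap. It was lower than PC9 in PC9-BrM4 at -0.34 (limma adjusted p = 0.000471) and higher in PC9-AMG at 0.31 (limma adjusted p = 0.000584). Between PC9-AMG and PC9-BrM4 the log2 difference came to 0.65 (limma adjusted p = 1.50e-05). The rises of BIRC5 and CDCA8 in PC9-AMG stood inside raised stretches of chromosome, described below, and both turned negative with the regional median removed.

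Of the 5 members of the spindle checkpoint and the anaphase-promoting complex, CDC20 rose in both sublines and TTK and BUB1B fell in both. CDC20, the activator of the complex (chromosome 1, 43358955 to 43363202), had 326 and 332 TPM in PC9-BrM4 and 399.8 and 419 TPM in PC9-AMG, against 274 and 275 TPM in PC9. The 3 lines did not overlap, and CDC20 was the member with the largest rise against PC9 in each subline, at 0.26 (limma adjusted p = 0.00169) in PC9-BrM4 and 0.57 (limma adjusted p = 4.04e-05) in PC9-AMG. With the regional median removed it no longer passed in either, at 0.12 (limma adjusted p = 0.0676) and 0.09 (limma adjusted p = 0.137). UBE2C, the enzyme that starts ubiquitin chains for the complex, had 257 and 249 TPM in PC9-BrM4 and 325 and 340.0 TPM in PC9-AMG, against 321 and 312 TPM in PC9. It fell in PC9-BrM4 at -0.32 (limma adjusted p = 0.000810), did not pass in PC9-AMG at 0.07 (limma adjusted p = 0.196), and was higher in PC9-AMG than in PC9-BrM4 by 0.39 (limma adjusted p = 0.000209).

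TTK, or MPS1, the kinase that opens checkpoint signalling, stood at 58.3 and 57.5 TPM in PC9-BrM4 and 58.5 and 56.2 TPM in PC9-AMG, against 78.0 and 72.1 TPM in PC9. Its subline libraries overlapped each other below both PC9 libraries, with log2 fold changes of -0.37 and -0.38 (limma adjusted p = 0.00134 and 0.000885). BUB1B, or BUBR1, part of the inhibitor that binds CDC20, had 62.0 and 64.95 TPM in PC9-BrM4 and 59.1 and 59.1 TPM in PC9-AMG, against 82.5 and 81.1 TPM in PC9, lower by -0.36 and -0.46 (limma adjusted p = 0.000712 and 0.000177). BUB1B shares 3709 bases with PAK6 on the same strand, which averaged 12.8 TPM over the libraries, so its value is uncertain by reads that could be split between them. BUB1, the kinetochore kinase that recruits BUBR1, stood at 74.4 and 74.9 TPM in PC9-BrM4 and 84.2 and 77.9 TPM in PC9-AMG, against 78.0 and 75.8 TPM in PC9. It passed in no comparison (limma adjusted p = 0.539, 0.256 and 0.0918). It was called higher in PC9-AMG than in PC9-BrM4 without PC9-AMG replicate 2 (0.0382). With the median of its neighbours within 5 Mb removed, it was higher in PC9-AMG than in PC9, at 0.14 (limma adjusted p = 0.0252), and than in PC9-BrM4, at 0.19 (limma adjusted p = 0.00701). BUB1B was then lower in PC9-AMG than in PC9-BrM4, at -0.14 (limma adjusted p = 0.0243), and the falls of TTK were smaller, at -0.23 (limma adjusted p = 0.0107) in PC9-BrM4 and -0.23 (limma adjusted p = 0.00924) in PC9-AMG.

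All 4 listed centromere and kinetochore genes fell in PC9-BrM4, and NDC80 alone was called in PC9-AMG. NDC80, the outer kinetochore protein that binds microtubules (chromosome 18, 2571511 to 2616635), had 124 and 119.6 TPM in PC9-BrM4 and 111 and 106 TPM in PC9-AMG, against 156 and 154 TPM in PC9, with PC9-AMG lowest and no overlap among the lines. Its log2 fold changes were -0.34 (limma adjusted p = 0.000791) in PC9-BrM4 and -0.51 (limma adjusted p = 0.000102) in PC9-AMG. It was lower in PC9-AMG than in PC9-BrM4 at -0.17 (limma adjusted p = 0.0158), a call that ended without PC9-BrM4 replicate 1 (0.0673) or PC9-AMG replicate 2 (0.0764). Genes within 5 Mb were also low there, with a median log2 fold change of -0.24 over 22 tested genes. NDC80 stood at 0.06 (limma adjusted p = 0.254) with the neighbours' median taken off each library.

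CENPA, the histone that marks centromeres, stood at 43.3 and 43.0 TPM in PC9-BrM4 and 52.6 and 50.9 TPM in PC9-AMG, against 53.9 and 58.9 TPM in PC9. It fell in PC9-BrM4 at -0.38 (limma adjusted p = 0.00148), did not pass in PC9-AMG at -0.12 (limma adjusted p = 0.107) unless the regional median was removed, at -0.19 (limma adjusted p = 0.0361), and was higher in PC9-AMG than PC9-BrM4 by 0.26 (limma adjusted p = 0.00676). CENPE, the kinesin that carries chromosomes to the spindle equator, had 15.3 and 17.1 TPM in PC9-BrM4 and 25.2 and 21.7 TPM in PC9-AMG, against 23.1 and 22.5 TPM in PC9. The PC9-AMG and PC9 libraries overlapped (0.03 (limma adjusted p = 0.776)), and both PC9-BrM4 libraries lay below them, by -0.47 (limma adjusted p = 0.00373) against PC9. CENPF, a large protein of the outer kinetochore, had 67.1 and 76.9 TPM in PC9-BrM4 and 82.4 and 74.6 TPM in PC9-AMG, against 88.7 and 87.3 TPM in PC9. Its fall in PC9-BrM4, at -0.29 (limma adjusted p = 0.0162), did not pass without PC9 replicate 1 (0.0729), PC9 replicate 2 (0.0573) or PC9-BrM4 replicate 1 (0.0775). In PC9-AMG it did not pass, at -0.17 (limma adjusted p = 0.0984), but did with FPKM in place of TPM (0.0401). It did not pass in PC9-AMG against PC9-BrM4 (0.197) except without PC9-BrM4 replicate 2 (0.0441).

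KIF11, KIF20A, KIF23 and KIF2C, the 4 members grouped here as kinesins, fell in PC9-BrM4 by similar amounts, within -0.32 to -0.27 on the log2 scale. They parted in PC9-AMG. CENPE, the kinesin grouped above with the kinetochore, lay outside that range in PC9-BrM4, at -0.47 (limma adjusted p = 0.00373). KIF11, or Eg5, which pushes the spindle poles apart, had 44.9 and 48.0 TPM in PC9-BrM4 and 46.9 and 43.7 TPM in PC9-AMG, against 57.2 and 58.7 TPM in PC9. The sublines overlapped each other below PC9, at -0.32 (limma adjusted p = 0.00385) in PC9-BrM4 and -0.35 (limma adjusted p = 0.00184) in PC9-AMG. KIF2C, or MCAK, which takes microtubules apart at the centromere (chromosome 1, 44739818 to 44767766), had 118 and 119 TPM in PC9-BrM4 and 199 and 199.6 TPM in PC9-AMG, against 142 and 151 TPM in PC9. It fell in PC9-BrM4 at -0.30 (limma adjusted p = 0.00121) and rose in PC9-AMG at 0.44 (limma adjusted p = 0.000157). Its difference between PC9-AMG and PC9-BrM4, 0.75 with a standard error of 0.0441, was the largest of any member in that comparison (limma adjusted p = 1.16e-05).

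KIF20A and KIF23 work at the central spindle in cytokinesis. KIF20A stood at 88.4 and 90.0 TPM in PC9-BrM4 and 99.5 and 108 TPM in PC9-AMG, against 105 and 109.9 TPM in PC9, and KIF23 at 113 and 111 TPM in PC9-BrM4 and 132 and 130.2 TPM in PC9-AMG, against 138 and 139 TPM in PC9. Both fell in PC9-BrM4, at -0.27 (limma adjusted p = 0.00526) and -0.30 (limma adjusted p = 0.000784), and neither passed in PC9-AMG (limma adjusted p = 0.423 and 0.139). PC9-AMG was higher than PC9-BrM4 for KIF20A at 0.21 (limma adjusted p = 0.0109) and for KIF23 at 0.22 (limma adjusted p = 0.00228). The KIF20A call in that comparison ended without PC9-BrM4 replicate 1 (0.0504) or PC9-AMG replicate 2 (0.0587).

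Among the 7 spindle assembly genes, 5 fell in PC9-BrM4 and 4 in PC9-AMG, and 0 rose against PC9 in either. CKAP2, a microtubule-stabilizing protein of the spindle (chromosome 13, 52455360 to 52476631), had 73.5 and 72.8 TPM in PC9-BrM4 and 79.2 and 74.6 TPM in PC9-AMG, against 111 and 112 TPM in PC9. Both sublines lay well below PC9, at -0.60 in PC9-BrM4 and -0.53 in PC9-AMG, with a standard error of 0.0470 (limma adjusted p = 7.66e-05 and 0.000101). HMMR, the hyaluronan-mediated motility receptor, which acts at spindle poles (chromosome 5, 163460511 to 163491946), stood at 121 and 127 TPM in PC9-BrM4 and 98.8 and 82.9 TPM in PC9-AMG, against 140.1 and 137 TPM in PC9. It had the largest fall of any member in PC9-AMG, at -0.61 with a standard error of 0.0778 (limma adjusted p = 0.000503), and was lower in PC9-AMG than in PC9-BrM4 at -0.45 (limma adjusted p = 0.00196). In PC9-BrM4 it did not pass against PC9, at -0.16 (limma adjusted p = 0.129), but did without PC9-AMG replicate 1 or 2 in the shared fit (0.0263 and 0.0259) and in a fit of PC9-BrM4 and PC9 alone (0.0252).

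TPX2, which activates Aurora A on spindle microtubules, had 219.9 and 226 TPM in PC9-BrM4 and 245 and 245 TPM in PC9-AMG, against 251 and 255 TPM in PC9. It fell in PC9-BrM4 at -0.18 (limma adjusted p = 0.00611), a call that ended without PC9 replicate 2 (0.0546). It was higher in PC9-AMG than in PC9-BrM4 at 0.14 (limma adjusted p = 0.0162), which ended without PC9-BrM4 replicate 1 (0.0556) or PC9-AMG replicate 1 (0.0523). NUSAP1, a microtubule bundler near chromosomes, stood at 141 and 145 TPM in PC9-BrM4 and 161 and 164 TPM in PC9-AMG, against 180.0 and 182 TPM in PC9, 3 separate levels. Its fall was -0.34 (limma adjusted p = 0.000485) in PC9-BrM4 and -0.16 (limma adjusted p = 0.0131) in PC9-AMG, and it was higher in PC9-AMG than in PC9-BrM4 by 0.18 (limma adjusted p = 0.00639). The PC9-AMG fall ended without PC9 replicate 1 (0.0666), PC9 replicate 2 (0.0889) or PC9-AMG replicate 1 (0.0548).

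DLGAP5, or HURP, which stabilizes kinetochore fibres, had 87.7 and 90.4 TPM in PC9-BrM4 and 100.5 and 95.9 TPM in PC9-AMG, against 118 and 115 TPM in PC9. It fell in PC9-BrM4 at -0.38 (limma adjusted p = 0.000498) and in PC9-AMG at -0.24 (limma adjusted p = 0.00317). PC9-AMG was called higher than PC9-BrM4, at 0.14 (limma adjusted p = 0.0344), but not without PC9 replicate 1 or 2 (0.0678 and 0.0681), PC9-BrM4 replicate 1 (0.114) or PC9-AMG replicate 1 (0.140). ASPM, which focuses spindle poles, stood at 28.1 and 32.1 TPM in PC9-BrM4 and 41.0 and 36.2 TPM in PC9-AMG, against 40.8 and 39.0 TPM in PC9. It fell in PC9-BrM4 at -0.40 (limma adjusted p = 0.00667), overlapped PC9 in PC9-AMG, and was higher in PC9-AMG than in PC9-BrM4 at 0.35 (limma adjusted p = 0.00914), a call that ended without PC9-BrM4 replicate 1 (0.0556) or PC9-AMG replicate 1 (0.0644). PRC1, which bundles the central spindle, had 149.97 and 151 TPM in PC9-BrM4 and 156 and 153 TPM in PC9-AMG, against 147 and 145 TPM in PC9 and passed in no comparison, with log2 fold changes of 0.04, 0.08 and 0.04 (limma adjusted p = 0.416, 0.114 and 0.419).

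Of the 2 cytokinesis genes beside the kinesins, ECT2 fell in both sublines and ANLN passed against PC9 in neither. ECT2, which activates RhoA at the cell equator, had 124 and 125 TPM in PC9-BrM4 and 139 and 122 TPM in PC9-AMG, against 169 and 165 TPM in PC9. All subline libraries were below PC9, at -0.42 (limma adjusted p = 0.00132) in PC9-BrM4 and -0.36 (limma adjusted p = 0.00216) in PC9-AMG, and still with the regional median removed, at -0.22 (limma adjusted p = 0.00749) and -0.16 (limma adjusted p = 0.0200). The sublines overlapped each other (limma adjusted p = 0.429), although PC9-AMG was called higher than PC9-BrM4 without PC9-AMG replicate 2 (0.0381). ANLN, anillin, the scaffold of the contractile ring, stood at 251 and 263 TPM in PC9-BrM4 and 314 and 286 TPM in PC9-AMG, against 288 and 280.4 TPM in PC9. It did not pass against PC9 in PC9-BrM4 at -0.14 (limma adjusted p = 0.0582) or in PC9-AMG at 0.08 (limma adjusted p = 0.255). The PC9-BrM4 fall passed in 8 of the 18 alternatives, among them without PC9-AMG replicate 1 or 2 (0.0354 and 0.0352) and with the regional median removed, at -0.27 (limma adjusted p = 0.00359). Its rise in PC9-AMG against PC9-BrM4, 0.22 (limma adjusted p = 0.00924), ended without PC9-BrM4 replicate 1 (0.0564) or PC9-AMG replicate 1 (0.0513).

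TOP2A, the topoisomerase that untangles sister chromatids (chromosome 17, 40388521 to 40417950), had 128 and 130.2 TPM in PC9-BrM4 and 149 and 138 TPM in PC9-AMG, against 213 and 214 TPM in PC9. It showed the largest fall of any member in PC9-BrM4, where the mean was 129 ± 1.85 TPM, compared with 214 ± 0.122 TPM in PC9 (SD, n = 2), a log2 fold change of -0.72 with a standard error of 0.0480 (limma adjusted p = 3.67e-05). In PC9-AMG it fell to 143 ± 7.79 TPM, or -0.57 (limma adjusted p = 7.70e-05). The difference between the sublines, 0.15 (limma adjusted p = 0.0292), was the least firm of these. It ended without PC9 replicate 1 or 2 (0.0572 and 0.0575), PC9-BrM4 replicate 1 or 2 (0.102 and 0.0600) or PC9-AMG replicate 1 (0.133).

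MKI67, which encodes Ki-67, the coat of mitotic chromosomes used as a marker of cycling cells, did not follow TOP2A. It had 81.5 and 107 TPM in PC9-BrM4 and 105 and 101 TPM in PC9-AMG, against 97.9 and 95.6 TPM in PC9. The PC9-BrM4 replicates lay on both sides of PC9, and no comparison passed (limma adjusted p = 0.719, 0.498 and 0.290). Without PC9-BrM4 replicate 2, MKI67 was called lower in PC9-BrM4 than in PC9 (limma adjusted p = 0.0154) and higher in PC9-AMG than in PC9-BrM4 (0.00375). MKI67 had the widest spread in PC9-BrM4 of the 34 genes, 94.1 ± 17.8 TPM (SD, n = 2).

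Several members that rose in PC9-AMG lie among neighbours that rose with them. CDCA8, CDC20 and KIF2C, 3 of the 5 members higher in PC9-AMG than in PC9, sit on chromosome 1 between 37692401 and 44767766. Tested genes within 5 Mb had median log2 fold changes of 0.49 around CDCA8, 0.47 around CDC20 and 0.43 around KIF2C. These windows overlap, so the medians rest partly on the same genes. A negative log2 fold change, called or not, was found in 9.18%, 13.1% and 14.5% of 98, 122 and 110 neighbours. Over all tested genes that share was 50.7%. Around BIRC5 on chromosome 17 the median was 0.46, with negative log2 fold changes in 7.41% of 162 neighbours. PLK1 on chromosome 16 lay in a stretch with a median of 0.08.

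With the median of its neighbours taken off each library, CDCA8 stood at -0.23 (limma adjusted p = 0.00412) in PC9-AMG against PC9, called lower. BIRC5 stood at -0.11 (limma adjusted p = 0.116), KIF2C at -0.02 (limma adjusted p = 0.719) and CDC20 at 0.09 (limma adjusted p = 0.137), none of which passed, while PLK1 stayed higher at 0.22 (limma adjusted p = 0.0165). Against PC9-BrM4, CDC20 turned to -0.03 (limma adjusted p = 0.599) and BIRC5 no longer passed at 0.06 (limma adjusted p = 0.381), while KIF2C at 0.42 (limma adjusted p = 0.000282) and CDCA8 at 0.30 (limma adjusted p = 0.00116) stayed called. On the lower side, 91.2% of 34 neighbours of CKAP2 and 86.4% of 22 neighbours of NDC80 had negative log2 fold changes in PC9-AMG against PC9, called or not. The medians were -0.38 and -0.28, and 50.7% of all tested genes were negative. Both members stayed called there with the median removed, at -0.16 (limma adjusted p = 0.0203) and -0.19 (limma adjusted p = 0.00676). The PC9-AMG falls of CCNA2, CCNB1 and DLGAP5 no longer passed, at -0.11 (limma adjusted p = 0.0704), -0.10 (limma adjusted p = 0.237) and -0.04 (limma adjusted p = 0.400), nor did the higher levels of FOXM1 and TPX2 in PC9-AMG than in PC9-BrM4, at 0.10 (limma adjusted p = 0.169) and 0.09 (limma adjusted p = 0.103). CCNA2 was called lower and CKAP2 higher in PC9-AMG than in PC9-BrM4, at -0.13 (limma adjusted p = 0.0359) and 0.27 (limma adjusted p = 0.00213), DLGAP5 stood at 0.24 (limma adjusted p = 0.00237) there, and CDCA8 in PC9-BrM4 against PC9 at -0.52 (limma adjusted p = 0.000154). Neighbours of TOP2A had a median of -0.21 in PC9-BrM4, and TOP2A stayed called at -0.53 (limma adjusted p = 0.000252). Copy number was not measured, and its part in these values was not tested.

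**Figure D4:**
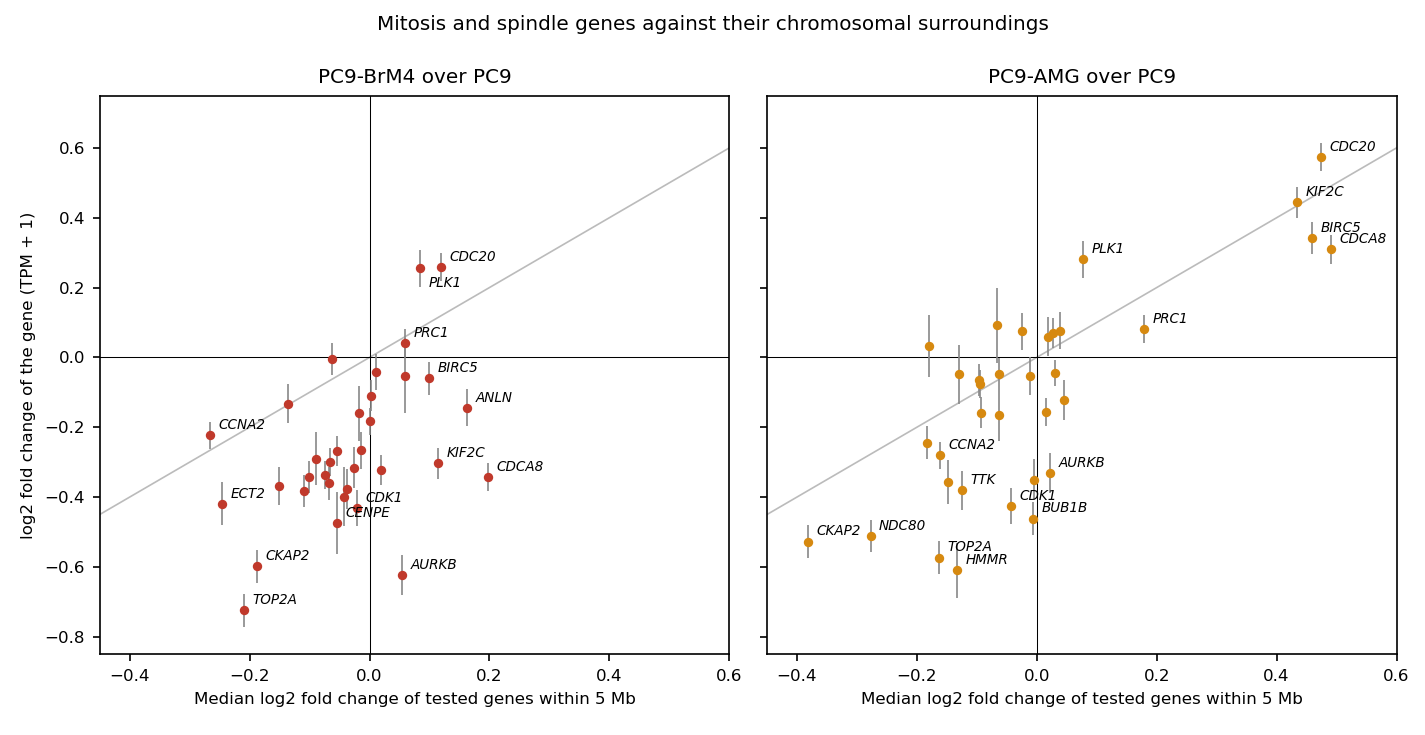
Log2 fold change of each of the 34 genes (y axis) against the median log2 fold change of tested genes within 5 Mb (x axis), 1 panel for each subline with PC9. In PC9-AMG with PC9, CDCA8, CDC20, KIF2C and BIRC5 lie at regional medians of 0.43 to 0.49.

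Calls were counted for members with and without CHR letters. Of 21 members with CHR letters in the 300-base window, 13 were lower and 2 higher in PC9-BrM4 than in PC9 (median -0.32), and of 7 without, 6 were lower and 0 higher (median -0.30). In PC9-AMG against PC9 the counts were 9 lower and 3 higher of 21 (median -0.12), and 4 lower and 1 higher of 7 (median -0.16). Lower calls covered 23.1% and 27.7% of all tested genes in these comparisons, in the same order. The difference between these groups of genes was not tested. AURKB, KIF20A and CKAP2, counted as without CHR letters, have windows set 401, 384 and 628 bases from the deposited start. Each of them is among the 6 lower members. MKI67, counted as with CHR letters, has its window set 219 bases away. For these genes the letters around the deposited start were not searched as such.

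Other genes of division were counted in the same fit, from lists drawn up by role and read beside the shares of all tested genes given above. Single genes are named by comparison, so a gene named for a subline can differ from PC9 in the other subline too. Other spindle, centrosome and cytokinesis genes had 27 of 38 lower and 1 higher in PC9-BrM4 (median -0.27) and 18 lower and 3 higher in PC9-AMG (median -0.12). TROAP, a spindle-associated protein, averaged 25.6 TPM in PC9-BrM4, compared with 47.6 TPM in PC9, at -0.87 (limma adjusted p = 0.000103). ESPL1, the separase that cleaves cohesin, averaged 15.8 TPM in PC9-BrM4, compared with 27.1 TPM in PC9, at -0.75 (limma adjusted p = 0.000282). Neither passed in PC9-AMG, where TROAP averaged 49.9 TPM (limma adjusted p = 0.462) and ESPL1 27.4 TPM (0.891). With regional medians removed the PC9-BrM4 values were -0.44 (limma adjusted p = 0.00169) for TROAP and -0.29 (limma adjusted p = 0.0112) for ESPL1. The minus-end kinesin KIFC3 was higher in both sublines, at 0.62 (limma adjusted p = 0.000249) in PC9-BrM4 and 0.66 (limma adjusted p = 0.000135) in PC9-AMG. The mitotic kinase PBK averaged 68.6 TPM in PC9-BrM4 and 54.9 TPM in PC9-AMG, against 78.0 TPM in PC9. It was lower in PC9-AMG at -0.50 (limma adjusted p = 0.000127).

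Other kinetochore and checkpoint genes had 20 of 33 lower and 2 higher in PC9-BrM4 (median -0.19) and 23 lower and 3 higher in PC9-AMG (median -0.31). In PC9-AMG the inner kinetochore genes CENPK and CENPH averaged 38.7 and 47.6 TPM, against 74.0 and 73.9 TPM in PC9, at -0.92 (limma adjusted p = 1.95e-05) and -0.62 (limma adjusted p = 4.07e-05). CENPK was lower in PC9-BrM4 too, at -0.50 (limma adjusted p = 0.000295), where CENPH did not pass at 0.04 (limma adjusted p = 0.442). CENPN, which joins the inner kinetochore to the CENPA nucleosome, was lower in PC9-AMG than in PC9-BrM4 at -0.50 (limma adjusted p = 0.000100), but not with its regional median removed, at -0.06 (limma adjusted p = 0.318). In PC9-BrM4 the checkpoint protein MAD1L1 rose to 52.3 TPM against 33.3 TPM in PC9, at 0.64 (limma adjusted p = 0.000100), and 0.35 (limma adjusted p = 0.00163) with the regional median removed. SGOL2, a shugoshin that guards cohesin at the centromere, fell there to 19.9 TPM against 30.3 TPM in PC9, at -0.59 (limma adjusted p = 0.000532). In PC9-AMG MAD1L1 averaged 43.1 TPM and SGOL2 23.9 TPM.

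Of 17 subunits of the anaphase-promoting complex and its inhibitor, 3 were higher (17.6%) and 5 lower (29.4%) in PC9-BrM4 (median -0.01), beside 23.4% and 23.1% of all tested genes. In PC9-AMG 3 were higher (17.6%) and 8 lower (47.1%), with a median of -0.07, beside 27.8% and 27.7% of all tested genes. UBE2S, which lengthens the ubiquitin chains that UBE2C starts, averaged 535 ± 2.33 TPM in PC9-AMG against 287 ± 8.52 TPM in PC9 (SD, n = 2), at 0.90 (limma adjusted p = 6.92e-06), and 0.42 (limma adjusted p = 0.000366) with the regional median removed. In PC9-BrM4 it stood at 265 ± 5.46 TPM, -0.12 (limma adjusted p = 0.0472), a call that ended in most alternatives, without PC9 replicate 1 (0.281) among them. FBXO5, or EMI1, the inhibitor of the complex, averaged 30.3 TPM in PC9-BrM4 and 29.9 TPM in PC9-AMG, against 40.5 TPM in PC9. It was lower in PC9-BrM4 at -0.41 (limma adjusted p = 0.00186). In PC9-AMG too, both libraries, at 31.4 and 28.4 TPM, lay below both PC9 libraries, at 40.6 and 40.5 TPM. The falls were of similar size with the regional median removed, at -0.43 (limma adjusted p = 0.00132) in PC9-BrM4 and -0.42 (limma adjusted p = 0.00110) in PC9-AMG. ANAPC16 was lower in PC9-AMG at -0.51 (limma adjusted p = 0.000200). ANAPC1, the scaffold subunit, was higher in PC9-BrM4 at 0.28 (limma adjusted p = 0.0228), and CDC26 higher in PC9-AMG than in PC9-BrM4 at 0.51 (limma adjusted p = 0.000212). The ANAPC1 call ended without PC9 replicate 1 or 2 (limma adjusted p = 0.0543 and 0.123) or PC9-BrM4 replicate 2 (0.119).

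Condensin and cohesin subunits had 0 higher calls in either subline. Of 17, 7 were lower (41.2%) in PC9-BrM4 (median -0.14) and 12 (70.6%) in PC9-AMG (median -0.21), beside 23.1% and 27.7% of all tested genes. PDS5B, a cohesin regulator, averaged 15.2 TPM in PC9-BrM4 and 12.01 TPM in PC9-AMG, against 21.3 TPM in PC9, at -0.46 (limma adjusted p = 0.00135) and -0.78 (limma adjusted p = 0.000101). The condensin ATPase SMC4 averaged 176 TPM in PC9-BrM4 and 168 TPM in PC9-AMG, against 228 TPM in PC9, at -0.38 (limma adjusted p = 0.00120) in PC9-BrM4. The cohesin loader NIPBL averaged 52.4 TPM in PC9-BrM4 and 39.0 TPM in PC9-AMG, against 59.4 TPM in PC9, at -0.60 (limma adjusted p = 0.000913) in PC9-AMG. With regional medians removed, PDS5B in PC9-BrM4 stood at -0.07 (limma adjusted p = 0.361) and NIPBL in PC9-AMG at -0.02 (limma adjusted p = 0.831), and neither passed. PDS5B in PC9-AMG stood at -0.34 (limma adjusted p = 0.00269) and SMC4 in PC9-BrM4 at -0.25 (limma adjusted p = 0.00431), both still lower. SMC2, the other condensin ATPase, was lower in PC9-AMG than in PC9-BrM4 at -0.45 (limma adjusted p = 0.000567).

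Among kinases and phosphatases of mitotic entry, 13 of 14 listed genes were tested. In PC9-BrM4 8 were lower (61.5%) and 2 higher (15.4%), beside 23.1% and 23.4% of all tested genes. In PC9-AMG 5 were lower (38.5%) and 1 higher (7.69%), beside 27.7% and 27.8% of all tested genes. CKS2, a small subunit bound to CDK1, averaged 335 TPM in PC9-BrM4, compared with 512 TPM in PC9, at -0.61 (limma adjusted p = 0.000107). CDC25A, a phosphatase that activates CDKs, was higher in PC9-BrM4 at 0.53 (limma adjusted p = 0.000408) and in PC9-AMG at 0.32 (limma adjusted p = 0.00334). MASTL, or Greatwall, which restrains the phosphatase that opposes CDK1, was lower in PC9-AMG at -0.62 (limma adjusted p = 0.000355), and did not pass (limma adjusted p = 0.988) with its regional median removed.

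Regulators that bind CHR promoters were counted in the same way. Of 12 B-MYB, MuvB and DREAM subunits, 3 were higher (25%) and 3 lower (25%) in PC9-BrM4 (median -0.07), near the 23.4% and 23.1% of all tested genes. In PC9-AMG 1 was higher (8.33%) and 7 lower (58.3%), with a median of -0.24, beside 27.8% and 27.7% of all tested genes. Of the 3 NF-Y subunits, which bind CCAAT, 2 were higher and 1 lower in PC9-BrM4, and 1 higher and 2 lower in PC9-AMG. MYBL2, which encodes B-MYB, had 272 and 290.2 TPM in PC9-BrM4 and 197 and 209 TPM in PC9-AMG, against 197 and 201 TPM in PC9. It was higher in PC9-BrM4 at 0.50 (limma adjusted p = 0.000238), where 23 of the 34 members were lower, and did not pass in PC9-AMG at 0.03 (limma adjusted p = 0.674). E2F5, a repressor subunit of DREAM, was higher in PC9-BrM4 at 0.52 (limma adjusted p = 0.000769). The MuvB subunit LIN52 averaged 11.4 TPM in PC9-AMG against 22.4 TPM in PC9, at -0.92 (limma adjusted p = 6.78e-05). The NF-Y subunit NFYC averaged 98.5 TPM in PC9-BrM4 and 128 TPM in PC9-AMG, against 79.9 TPM in PC9, and rose in PC9-AMG at 0.67 (limma adjusted p = 5.33e-05). E2F4 was lower in PC9-AMG than in PC9-BrM4 at -0.62 (limma adjusted p = 5.81e-05). With regional medians removed these 3 values came to -0.25 (limma adjusted p = 0.0210), 0.15 (limma adjusted p = 0.0312) and -0.20 (limma adjusted p = 0.0296), for LIN52, NFYC and E2F4 in turn.

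Genes of the preceding G1/S and replication phase were counted beside the mitotic genes. In PC9-BrM4 15 of 36 were higher (41.7%) and 9 lower (25%), beside 23.4% and 23.1% of all tested genes (list median 0.07). The mitotic members had 2 higher and 23 lower there. In PC9-AMG 3 were higher (8.33%) and 24 lower (66.7%), beside 27.8% and 27.7% of all tested genes (list median -0.31). The difference between the lists was not tested. Their summed level was 4300 and 4349 TPM in PC9-BrM4, 3170.3 and 3278 TPM in PC9-AMG, and 4157 and 4202 TPM in PC9. PCNA, the sliding clamp of DNA polymerases, had 753 and 726 TPM in PC9-BrM4 and 342 and 362 TPM in PC9-AMG, against 703 and 729.9 TPM in PC9. It was lower in PC9-AMG than in PC9 at -1.02 (limma adjusted p = 6.23e-06), as was the polymerase subunit POLE2 at -0.95 (limma adjusted p = 0.000524). The origin licensing factor CDT1 and the transcription factor E2F2 were higher in PC9-BrM4 at 0.63 (limma adjusted p = 0.000306) and 0.57 (limma adjusted p = 0.00126). GINS2, a subunit of the replicative helicase, was lower in PC9-AMG than in PC9-BrM4 at -1.14 (limma adjusted p = 9.43e-06).

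Of the G1 cyclins, their kinases and CDK inhibitors, 14 of 15 were tested. In PC9-BrM4 10 were lower (71.4%) and 2 higher (14.3%), beside 23.1% and 23.4% of all tested genes (list median -0.38). In PC9-AMG 5 were lower (35.7%) and 4 higher (28.6%), beside 27.7% and 27.8% of all tested genes (list median -0.10). CDKN1A, or p21, an inhibitor of CDKs, had 18.7 and 19.5 TPM in PC9-BrM4 and 71.0 and 62.1 TPM in PC9-AMG, against 26.9 and 30.2 TPM in PC9. It was lower in PC9-BrM4 at -0.56 (limma adjusted p = 0.00134), higher in PC9-AMG at 1.19 (limma adjusted p = 3.84e-05), and 1.75 higher in PC9-AMG than in PC9-BrM4 (limma adjusted p = 4.69e-06). CDKN1B, or p27, and CDKN2B, or p15, were lower in PC9-BrM4 at -0.64 (limma adjusted p = 5.16e-05) and -0.68 (limma adjusted p = 0.000371). RB1, the retinoblastoma protein, averaged 31.8 TPM in PC9-BrM4 and 21.0 TPM in PC9-AMG, against 41.1 TPM in PC9. In PC9-AMG it was lower at -0.94 (limma adjusted p = 4.67e-05), and -0.58 (limma adjusted p = 0.000240) with the regional median removed.

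**Figure D5:**
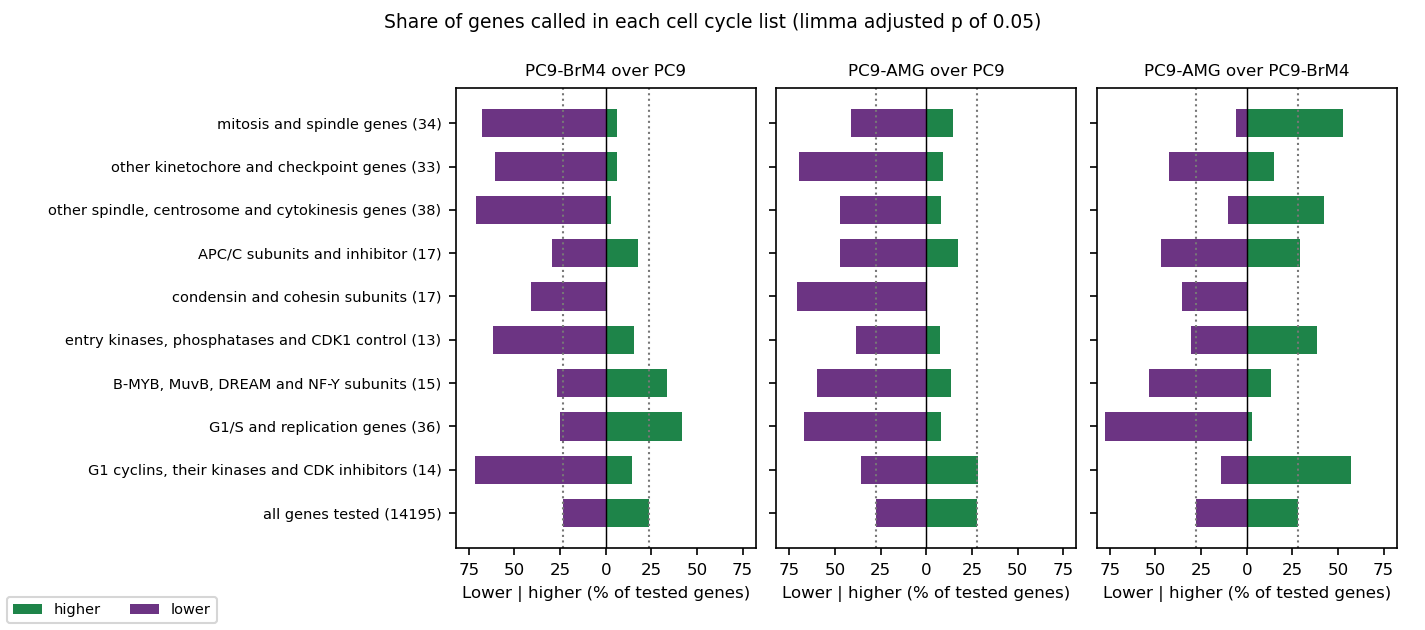
Share of tested genes called higher and lower in each list, in percent, 1 panel per comparison, with all tested genes for reference. In PC9-BrM4 with PC9 the members are 67.6% lower and 5.88% higher, against 23.1% and 23.4% of all tested genes.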

How the data were processed

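The authors deposited 1 gene table per library with TPM, FPKM and coverage, per the file headers. Tools listed in the submitters' processing notes are HISAT2 2.1.0, StringTie 1.3.4d and bcl2fastq, with build hg38. The sources used here do not give the annotation release, the mapping options, the strand setting or the treatment of reads shared by similar copies. The deposited TPM values were tested; the deposited FPKM served as an alternative, and the deposited coverage gave only the depth estimate. The series-wide table was left out, since 6 of its columns could not be matched to sample titles. The PC9-AMG tables carry EMG in their names and were assigned by the sample records.

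Lines of a symbol were summed. Genes with at least 1 TPM in at least 2 of 6 libraries were tested on log2(TPM + 1) in limma 3.58.1 (R 4.3.3) with trended variances, 1 mean per line, 3 residual degrees of freedom and a Benjamini-Hochberg adjusted p under 0.05 over all 14195 genes. The script was tested on simulated data. Read counts could not be had, so no counting interval is given. A regional median is that of the log2 fold changes of tested genes within 5 Mb. To remove it, the median deviation of these neighbours from their own means was subtracted in each library. The result can therefore differ from a plain subtraction of the printed median. Promoter letters were searched on both strands of RefSeq windows. Members, lists and tests were chosen with earlier results of these data known. All 34 members are named. From each other cell cycle list and comparison, at most the 2 called genes with the largest change are named that reach a mean of 5 TPM and whose libraries do not overlap, plus MYBL2 and CDKN1A; 1 further gene of that rule is not reported here.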

Additional observations from a re-analysis of the deposited data

How the results depend on the processing

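The member results and the counts of the other cell cycle lists were recomputed under 18 alternatives, as were named genes in the comparisons that named them. Counts split by CHR letters or between MuvB and NF-Y were not, nor were all values of named genes in other comparisons. Of the recomputed counts of the other lists, 118 moved by more than 1.5-fold or between none and some, and 746 did not. Against PC9, the count of lower members stayed at 21 to 25 in PC9-BrM4 and 12 to 15 in PC9-AMG in all but the test against a fold of 1.2, which gave 4 and 6, with 0 and 2 higher; for PC9-AMG with PC9-BrM4 it gave 4 higher and 0 lower. With the regional median removed, 0 members were higher in PC9-BrM4 and 2 in PC9-AMG than in PC9. Leaving out 1 library gave 1 to 2 higher members for PC9-BrM4 with PC9, and for PC9-AMG with PC9-BrM4 11 to 19 higher and 1 to 2 lower. Among results that passed in either setting compared, signs turned only with the regional median removed: CCNA2 in PC9-BrM4 (0.0240), BIRC5 (-0.11), CDCA8 (-0.23) and KIF2C (-0.0202) in PC9-AMG, and CDC20 (-0.0313) and NDC80 (0.0579), with the companions NIPBL (0.1748) and MASTL (0.1653), in PC9-AMG with PC9-BrM4; the neighbours' values are subtracted there by construction. Values that passed in neither setting turned elsewhere too, as for MKI67 in PC9-BrM4 without PC9-BrM4 replicate 1 (0.1393).

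With the replicate number as a replicate block, 23 members were lower and 2 higher in PC9-BrM4, 14 and 5 in PC9-AMG, and 2 and 17 in PC9-AMG with PC9-BrM4, where DLGAP5 was lost; the UBE2S call in PC9-BrM4 was lost too. The labels give no pairing, and replicate differences correlated at -0.07, -0.03 and -0.06 between lines, so the libraries share only a number. Median-of-ratios scaling moved the median of all genes by 0.0035 to 0.0094 on the log2 scale. Of the 34 members, 7, 18 and 10 kept their verdict in all alternatives in PC9-BrM4 against PC9, in PC9-AMG against PC9 and in PC9-AMG against PC9-BrM4, in that order. With 2 libraries per line, a difference that missed the threshold is not shown to be absent.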
